A study of Mus musculus with 24 samples.

Results

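The blood of wild-type mice killed 24 h after 8.8 Gy of x-rays was compared with that of wild-type mice killed 24 h after sham exposure. The irradiated group holds the 4 of the 24 arrays of the series whose titles name wild type and 8.8 Gy, and the sham group the 5 arrays whose titles name wild type and 0 Gy. All mice were males of strain 129S/J, and 1 mouse gave 1 array per the series design. The series' design text gives 8.8 Gy as the wild-type LD50/30, the dose that kills 50% of the mice within 30 days. Wild-type mice given 6 Gy (5 arrays) serve below for the step between the doses. Arrays of Parp1-/- mice at 0 Gy and 6 Gy (5 each) entered the estimate of the spread and, in fits with scan day or slide as a block, also the difference itself. Blood was drawn from the heart, stabilised, and depleted of globin RNA before labelling with Cy3 on 1-colour Agilent arrays, so globin values here are those left after depletion.

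Ionising radiation breaks DNA, and the damage kinases ATM and ATR stabilise p53, a transcription factor that turns on genes of cell-cycle arrest, repair and cell death. Lymphocytes are among the most radiosensitive cells of the body and die by apoptosis within hours. Neutrophils and platelets in the blood do not divide, while their precursors in the marrow are lost. Damaged cells can also release DNA or RNA that cytosolic sensors read as viral, which turns on interferon-response genes. Whole-blood RNA is a mixture of all these cells. Fewer cells of a type and less RNA per cell cannot be told apart in it, and this holds for every gene group below.

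Levels are log2 processed signals minus the 75th percentile of the array, and a difference is the 8.8 Gy mean minus the sham mean on that scale, with the moderated standard error (SE) of limma. Of 12007 genes tested, 961 were higher after 8.8 Gy (8.0% of the genes tested) and 1210 lower (10.1%) at a limma adjusted p under 0.05, the rule for every call below. The median difference over all genes was -0.02. In 860 genes (7.16%) all 4 irradiated arrays lay above all 5 sham arrays, and in 1464 (12.2%) all lay below. Unless named otherwise, p-values are adjusted over these 12007 genes with the Benjamini-Hochberg method in limma.

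Both groups carried the markers of whole blood: Hba-a1 and Alas2 of red cells, Pf4 of platelets, S100a8 of neutrophils, Cd79b of B cells and Cd3e of T cells were well above background on all 9 arrays. The IgM gene Ighm was not well above background on any of them. The share of spots well above background was 49.4% ± 6.59 (SD, n = 4) after 8.8 Gy and 49.4% ± 6.54 (SD, n = 5) in sham (exact permutation test, two-sided, p = 0.889).

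Some arrays stood apart. All 5 sham arrays were scanned on day 4 of the series and all 4 irradiated arrays on day 3, on other slides, so that within the pair of groups scan day, slide and radiation cannot be told apart. A fit with scan day as a block, which links the days through arrays labelled Parp1-/- at 6 Gy, called 11 genes higher and 14 lower, and one with slide as a block called 0 (1029 genes at unadjusted p under 0.05). Only the array labelled Parp1-/- 6 Gy replicate 4 shared the scan day of the sham arrays, so the scan day fit hangs on it. It shared a slide only with sham replicate 1, so on the sham side the slide fit hangs on these arrays. The array labelled 8.8 Gy replicate 2 was nearly equal to the array labelled Parp1-/- 6 Gy replicate 1, the closest of 276 pairs of arrays. The SD of their log2 difference was 0.167, against a median of 0.901 over all pairs. Next closest were Parp1-/- 0 Gy replicates 4 and 5 (SD 0.262), which enter the estimate of the spread. Array 8.8 Gy replicate 4 had a dim patch over 5.20% of its spots, in which local medians fell as low as -4.48. Without 8.8 Gy replicates 2 and 4, the doubted arrays below, 224 genes were higher and 218 lower. Of these, 212 and 215 were among the genes called with all arrays.

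Parp1, a DNA break sensor that attaches poly(ADP-ribose) to proteins and the gene deleted in the other genotype, is given in each array as a check of the labels (probe at chr1:182530341-182530639, mm9). Its level was -0.35, -0.49, -0.59, -0.94 and -0.72 on sham replicates 1 to 5 and -1.25, -1.56, -1.58 and -3.94 on 8.8 Gy replicates 1 to 4. Every irradiated array lay below every sham array, and the difference was -1.47 ± 0.53 (SE, adjusted p = 0.0585). Replicate 4 was not well above background and its spot lay in the dim patch. Without replicate 4 the difference was -0.85 (adjusted p = 0.257). The array labelled Parp1-/- 6 Gy replicate 1 gave -1.67, well above background, while the other 4 arrays labelled so gave -3.45 to -5.01 and were not. Whether Parp1-/- 6 Gy replicate 1 or 8.8 Gy replicate 2 carries the right label was not tested.

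Genes of p53 arrest and feedback were higher after 8.8 Gy. Of 18 tested, 10 rose and 0 fell, with a median difference of 1.45. After normexp, another background correction, 8 rose, 1 fell and the median was 0.56, and with scan day as a block 3 rose. In all 10 every irradiated array lay above every sham array. Cdkn1a, the gene of p21, which arrests the cell cycle (probe at chr17:29237377-29237436, mm9), was at -2.13, -1.90, -1.75, -3.05 and -0.71 in sham and at 1.91, 1.67, 2.31 and 2.05 after 8.8 Gy. Every irradiated array thus stood far above every sham array, and the difference was 3.9 ± 0.32 (adjusted p = 3.99e-08). Gtse1, a regulator of p53 in G2, was not well above background on any sham array and at 1.03, 0.12, -0.53 and -0.96 after 8.8 Gy, at least 8.14-fold higher. That bound sets the irradiated mean against the dimmest signal well above background on each sham array. Psrc1, a spindle protein and p53 target, was likewise not well above background on any sham array and rose (adjusted p = 1.55e-05). Plk2, a kinase, rose by 3.20 ± 0.26 and Phlda3, an inhibitor of Akt signalling, by 3.06 ± 0.30.

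Some negative feedback genes of p53 were higher, while Mdm4 and Ppm1d were not called. Mdm2, the ubiquitin ligase that destroys p53, went from 2.20 to 3.02 in sham to 3.68 to 4.57 after 8.8 Gy, a rise of 1.38 ± 0.23 (adjusted p = 0.000481). Ccng1, cyclin G1, rose by 2.36 ± 0.26 and Zmat3, an RNA-binding p53 target, by 2.55. Not every known target passed. Gadd45a differed by 0.55 (adjusted p = 0.316), Btg2 by 0.48 (adjusted p = 0.242) and Sesn1 by -0.63 (adjusted p = 0.148). Trp53 itself, the gene of p53, ran from -1.88 to -1.25 in sham and from -3.02 to -1.31 after 8.8 Gy. Its groups overlapped, and the difference of -0.48 ± 0.37 was within the spread (adjusted p = 0.384).

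**Figure D1:**
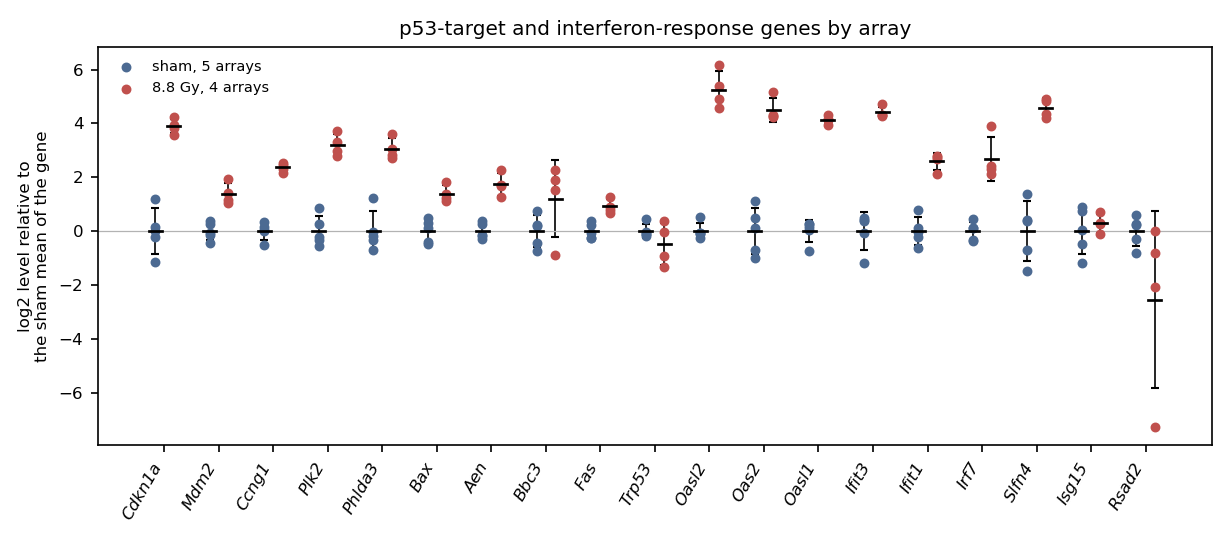
Level of p53-target and interferon-response genes on each array, as log2 relative to the mean of the 5 sham arrays of that gene (vertical axis), with sham arrays in blue, 8.8 Gy arrays in red, the group mean as a line and the SD as an error bar. The 4 irradiated arrays of Cdkn1a and Oasl2 all lie above the 5 sham arrays, the groups overlap for Trp53 and Isg15, and the lowest Rsad2 array is replicate 4, whose spot lies in the dim patch.

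Promoters of these genes were read from RefSeq (GRCm38.p6, 250 bases before to 50 after each start; 43 of 51 genes of the p53 lists matched by symbol) and searched on both strands for a pair of p53 half-sites with at most 13 bases between them. Such a pair was present in 20 of 27025 RefSeq promoters (0.0740%) and in 1 of the 43, that of Cdkn1a. Its stretch from 250 bases to 1 base before an annotated start lies at chr17:29090729-29090978 on the plus strand, and is shown because the match belongs to one of the strongest rises. It was picked after its values were seen. Capitals mark both half-sites, which span bases 73 to 42 before the start.
Cdkn1a: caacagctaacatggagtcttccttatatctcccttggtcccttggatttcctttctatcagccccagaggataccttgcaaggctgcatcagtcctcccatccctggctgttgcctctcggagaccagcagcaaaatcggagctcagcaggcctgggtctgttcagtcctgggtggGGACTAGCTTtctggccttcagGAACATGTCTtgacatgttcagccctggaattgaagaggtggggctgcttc
A match is a stretch of letters and not a measured binding site, and most p53-responsive sites are known to lie outside so short a window.

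Genes of p53-driven death moved the same way. Of 14 tested, 9 rose, 1 fell, and the median difference was 1.19. Bax, which opens the outer mitochondrial membrane, was at 1.79, 2.78, 1.87, 2.58 and 2.39 in sham and at 4.1, 3.49, 3.66 and 3.40 after 8.8 Gy. All irradiated arrays were higher, with a rise of 1.38 ± 0.23 (adjusted p = 0.000423). Tnfrsf10b, a TRAIL death receptor, rose by 2.31 ± 0.27, Pidd1, of the PIDDosome, by 1.97 ± 0.32 and Aen, an apoptotic nuclease, by 1.73 ± 0.26. Apaf1, on which the apoptosome is built, rose by 1.70 ± 0.32. The death receptor Fas rose by 0.91 ± 0.21 (adjusted p = 0.00524), a call that ended with the normexp background correction, where the difference was -0.04.

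Bbc3, which encodes the BH3-only protein Puma, was at 1.69 to 2.86 in sham and at 4.40, 4.01, 3.62 and 1.22 after 8.8 Gy. The lowest irradiated array was replicate 4, whose Bbc3 spot lay in the dim patch. With all arrays the difference was 1.2 ± 0.44 (adjusted p = 0.0583), and without replicate 4 it was 1.89 (adjusted p = 0.000515). After normexp 5 of the 14 death genes were called higher and the median was 0.28. Trp53i11 was the single death gene that fell, by 1.3 (adjusted p = 0.00444). In the Bcl2 family, which sets the threshold of the mitochondrial pathway, 0 of 9 rose and 1 fell. The survival genes Mcl1 and Bcl2 differed by 0.45 ± 0.24 (adjusted p = 0.203) and -0.45 ± 0.42 (adjusted p = 0.482). Bcl2l1, a further survival gene, differed by -1.12 ± 0.43 (adjusted p = 0.0746).

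Of 10 p53 targets of repair and metabolism, 3 rose and 2 fell, with a median of 0.61. Polk, a translesion polymerase, rose by 2.0 ± 0.34 and Ercc5, the XPG nuclease of nucleotide excision repair, by 0.91 ± 0.26. Ddb2, a damage sensor of the same pathway, fell by 0.79 ± 0.25 (adjusted p = 0.0321), and its groups overlapped. Under normexp Ddb2 turned to 0.11. Gpx1, a glutathione peroxidase that is abundant in red cells, fell by 1.39 ± 0.37 (adjusted p = 0.0121).

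Interferon-response genes held 6 of the 10 largest fitted rises among called genes whose arrays did not overlap. The oligoadenylate synthetases make 2-5A, a messenger of the antiviral response that leads to RNA decay. Of 8 genes of that family 5 rose and 0 fell, with a median of 2.39. Oasl2 (probe at chr5:115362168-115362227, mm9) was at -3.68, -4.25, -4.30, -4.27 and -4.44 in sham, well above background on 1 of 5 arrays, and at 0.71, 0.37, 1.98 and 1.18 after 8.8 Gy. Its fitted rise of 5.25 ± 0.64 (adjusted p = 1.08e-05) is set against a sham signal mostly not well above background. Oas2 rose by 4.49 ± 0.45, Oas1a by 2.99 ± 0.76 and Oas3 by 1.78 ± 0.43. Mx1, an antiviral GTPase, fell short of the filter for testing, with 0 of 5 sham arrays and 3 of 4 irradiated arrays well above background. Oas1b differed by 0.21 (adjusted p = 0.433).

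Among 26 tested antiviral effectors 14 rose, 1 fell, and the median was 1.42. Ifit3, a protein that binds foreign RNA, was at -0.96, -1.50, -1.07, -1.04 and -2.63 in sham and at 2.88, 2.82, 2.89 and 3.28 after 8.8 Gy. The irradiated arrays lay close together and far above sham, with a rise of 4.41 ± 0.45 (adjusted p = 1.11e-06). Its neighbour Ifit3b rose by 5.00 ± 0.48, a value open to cross-reaction since the genes are near copies. Ifit1 rose by 2.58 ± 0.37, Rtp4, a receptor chaperone, by 3.34 ± 0.36 and Usp18, which strips Isg15 from proteins, by 2.86 ± 0.32.

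Isg15 and Rsad2, both standard interferon targets, were not called higher. Isg15, a ubiquitin-like protein, was at 4.21, 6.16, 4.92, 6.28 and 5.46 in sham and at 6.13, 5.70, 5.67 and 5.30 after 8.8 Gy. The groups overlapped, with a difference of 0.30 ± 0.45 (adjusted p = 0.684). Rsad2, the antiviral enzyme viperin, was at 6.63 to 8.06 in sham and at 7.46, 6.62, 5.36 and 0.16 after 8.8 Gy. It was called lower (-2.55 ± 0.88, adjusted p = 0.0474), but the lowest array was replicate 4, where the local median was -3.52. Without replicate 4 the difference was -0.97 and the call ended (adjusted p = 0.192). The sham range of Rsad2 holds the sham mean of the cytosolic ribosomal protein genes (6.98). Whether its probe reports Rsad2 alone was not tested.

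The interferon-stimulated response element was searched as GAAA, any 2 bases and GAAA again, on either strand, in the window used for p53. It was present in 1079 of 27025 RefSeq promoters (3.99%) and in 25 of the 55 matched genes of the interferon lists (45.5%). Among genes of those lists that rose it was in 12 of 25 (48.0%), and among those not called in 12 of 28 (42.9%). Ifit3b (chr19:34607707-34607956, plus strand) and Ifit3 (chr19:34583279-34583528, plus strand) are shown as the strongest rises with a match. Isg15 (chr4:156200819-156201068, minus strand) and Rsad2 (chr12:26456453-26456702, minus strand) were added after their values were seen, as genes with a match that were not higher. Each sequence runs from 250 bases to 1 base before the start, with matches in capitals. Of the 3 matches of Isg15 neighbours overlap.
Ifit3b: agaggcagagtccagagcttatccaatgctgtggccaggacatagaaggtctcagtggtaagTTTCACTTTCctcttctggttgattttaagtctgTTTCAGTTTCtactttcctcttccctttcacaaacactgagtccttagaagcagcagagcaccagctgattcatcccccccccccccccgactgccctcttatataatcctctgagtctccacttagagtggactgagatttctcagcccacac
Ifit3: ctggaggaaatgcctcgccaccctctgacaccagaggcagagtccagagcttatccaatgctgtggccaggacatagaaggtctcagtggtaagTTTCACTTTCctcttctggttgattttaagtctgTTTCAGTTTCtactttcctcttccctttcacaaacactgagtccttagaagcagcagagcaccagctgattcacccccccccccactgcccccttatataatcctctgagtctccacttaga
Isg15: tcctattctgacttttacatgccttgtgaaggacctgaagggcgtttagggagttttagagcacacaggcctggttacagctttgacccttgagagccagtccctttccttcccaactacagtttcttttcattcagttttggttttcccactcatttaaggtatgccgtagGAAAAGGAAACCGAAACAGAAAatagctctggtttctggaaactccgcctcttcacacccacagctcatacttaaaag
Rsad2: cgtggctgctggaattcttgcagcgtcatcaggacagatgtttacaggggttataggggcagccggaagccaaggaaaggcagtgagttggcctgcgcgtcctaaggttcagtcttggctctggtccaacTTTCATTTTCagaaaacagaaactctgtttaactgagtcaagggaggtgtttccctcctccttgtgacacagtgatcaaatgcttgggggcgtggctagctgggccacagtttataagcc
Ifit3b and Ifit3 each hold 2 matches. Oasl2, Oasl1 and Slfn4 hold none in this window.

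Sensors and transcription factors of the interferon system went both ways. Of 18 tested, 4 rose, 2 fell, and the median was -0.03. Irf7, the factor that amplifies type I interferon, went from -1.29 to -0.48 in sham to 1.17 to 2.96 after 8.8 Gy, a rise of 2.68 ± 0.55 (adjusted p = 0.00247). Irf9, of the ISGF3 complex, rose by 1.11 ± 0.26 and Ifih1, the RNA sensor MDA5, by 1.38 ± 0.37. Sting1, the adaptor that relays cytosolic DNA, fell by 1.60 ± 0.30 (adjusted p = 0.00134), and Ifnar1, a chain of the type I interferon receptor, by 0.90 (adjusted p = 0.0107). In the Schlafen family 4 of 7 rose, among them Slfn4 by 4.58 ± 0.57 and Slfn3 by 3.51 ± 0.38. Of 13 interferon-gamma inducible GTPases 4 rose and 1 fell, with a median of 0.23. Irgm2 rose by 1.42 ± 0.33 and Igtp by 1.22 ± 0.28, while Gbp4 fell by 1.44 ± 0.39. Without both doubted arrays 5 of 8 oligoadenylate synthetase genes, 10 of 26 effectors and 1 of 13 GTPases were called higher, and after normexp 4, 8 and 1, with medians of 1.24 in the synthetases and 0.38 in the effectors.

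Lymphocyte genes were lower after 8.8 Gy. Of 22 tested genes of the B cell receptor and B lineage 0 rose and 17 fell, with a median of -2.46. In 16 of the 17 every irradiated array lay below every sham array, the exception being the complement receptor gene Cr2. Cd79b, the signalling chain of the B cell receptor, was at 4.12, 4.25, 4.14, 4.14 and 4.16 in sham and at -0.11, 1.05, 1.16 and 1.35 after 8.8 Gy. The sham arrays were nearly equal and all irradiated arrays lay far below them. The fall was 3.30 ± 0.56 (adjusted p = 0.000514). Its partner Cd79a fell by 2.38 ± 0.31 and Ms4a1, the gene of CD20, by 3.33 ± 0.74.

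Vpreb3, a chaperone of early and mature B cells, had the largest fall of the list. It was at 1.31, 2.05, 1.63, 1.93 and 2.21 in sham and at -2.81, -3.11, -3.06 and -0.93 after 8.8 Gy, a fall of 4.30 ± 0.41 (adjusted p = 4.08e-07). Replicate 4 was the highest of the irradiated arrays and still below sham. The adaptor Blnk fell by 3.59 ± 0.65, the IgM receptor Fcmr by 3.44 ± 0.49 and the co-receptor Cd72 by 3.48 ± 0.45. B lineage transcription factors fell too, Spib by 3.16 ± 0.43, Pou2af1 by 2.88 and Ebf1 by 2.56. After normexp 13 of the 22 fell, 1 rose and the median was -0.67. Of the members not called, Cd22 differed by -0.15 (adjusted p = 0.652), the kinase gene Btk, which myeloid cells also express, by 0.57 (adjusted p = 0.169) and Cd37 by -0.37 (adjusted p = 0.340).

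Of 23 T cell surface genes and kinases 0 rose and 18 fell, with a median of -1.58, and all 23 differences were below 0. Thy1 (probe at chr9:43856591-43856650, mm9), a T cell surface glycoprotein, was at 4.91, 5.14, 5.05, 5.56 and 4.74 in sham and at 1.93, 1.36, 0.43 and 1.52 after 8.8 Gy, a fall of 3.77 ± 0.33 (adjusted p = 1.27e-07). Cd8a, the CD8 co-receptor chain, was at -0.26, 0.25, 0.50, 0.73 and -0.27 in sham and not well above background on any irradiated array, at least 8.11-fold lower. Cd4 stood apart from it. Its level was 5.70, 4.68, 4.89, 4.82 and 4.47 in sham and 4.34, 4.38, 5.43 and 5.32 after 8.8 Gy, with overlapping groups and a difference of -0.05 ± 0.29 (adjusted p = 0.930). The CD3 chains Cd3g, Cd3d and Cd3e fell by 2.58 ± 0.31, 2.27 ± 0.30 and 1.43 ± 0.31, and Lck, the kinase of CD4 and CD8, by 2.62 ± 0.38.

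**Figure D2:**
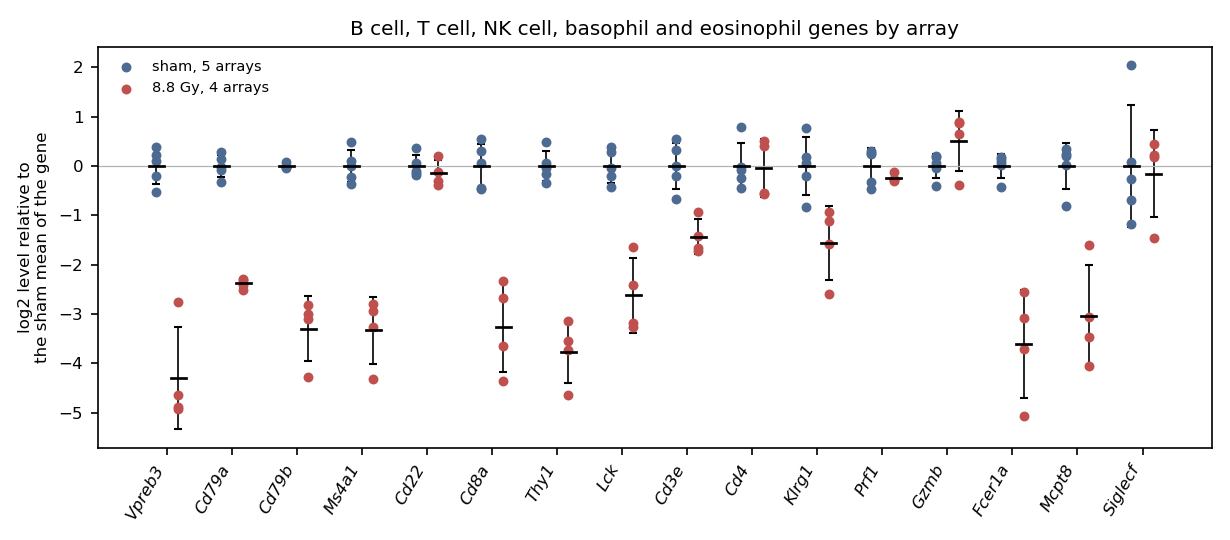
Level of lymphocyte, basophil and eosinophil genes on each array, as log2 relative to the mean of the 5 sham arrays of that gene (vertical axis), with sham arrays in blue, 8.8 Gy arrays in red, the group mean as a line and the SD as an error bar. Vpreb3, Cd79b, Thy1 and Fcer1a lie below sham on all 4 irradiated arrays, while the groups overlap for Cd22, Cd4, Prf1 and Siglecf.

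Of 16 naive T cell regulators 0 rose and 8 fell, with a median of -1.22. Dapl1, a gene of naive T cells, was well above background on all 5 sham arrays and on 2 of 4 irradiated ones. It was at 2.37, 2.99, 2.71, 3.28 and 2.60 in sham and at -2.46, -3.62, -2.56 and -2.46 after 8.8 Gy, a fall of 5.57 ± 0.42 (adjusted p = 3.24e-08). Ccr7 and S1pr1, which guide lymphocytes into and out of lymph nodes, fell by 1.87 ± 0.37 and 1.91 ± 0.34. The survival receptor Il7r fell by 1.73 ± 0.29 and the transcription factor Tcf7 by 1.76 ± 0.41. Without both doubted arrays 4 of the 16 fell.

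Most NK cell and cytotoxic genes were not called. Of 18 tested 0 rose and 2 fell, where 10.1% of all genes fell. The median was -0.44, and 15 of the 18 differences were below 0. The mean level of the list, relative to sham, was 0.19, -0.14, -0.95 and -0.51 on 8.8 Gy replicates 1 to 4. On the sham arrays it ran from -0.30 to 0.23. The falls were in the lectin receptors Klrd1 (1.45 ± 0.30) and Klrg1 (1.56 ± 0.38). Ncr1, the NK receptor NKp46, was at -1.59 to -1.04 in sham and at -1.25 to -1.11 after 8.8 Gy, a difference of 0.15 ± 0.38 (adjusted p = 0.823). Perforin, Prf1, differed by -0.24 ± 0.32 (adjusted p = 0.633) and granzyme B, Gzmb, by 0.51 ± 0.36 (adjusted p = 0.344), the highest difference of the list. Gzma differed by -0.48 ± 0.32 (adjusted p = 0.321) and Il2rb by -0.75 ± 0.33 (adjusted p = 0.122). Whether NK and T cell genes differed in their response was not tested.

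MHC class II genes, which display peptides to CD4 T cells and are made by B cells and other presenting cells, were lower. Of 10 tested 0 rose and 7 fell, with a median of -1.55. H2-Ob and H2-Oa, a class II modulator of B cells, fell by 2.78 ± 0.26 and 2.44 ± 0.38. The class II chain genes H2-Ab1 and H2-Aa fell by 1.58 ± 0.45 and 1.72 ± 0.48, and Cd74, the invariant chain, by 1.89 ± 0.56 (adjusted p = 0.0221). Without replicate 2 the number that fell was 3 of 10, and without both doubted arrays also 3. With scan day as a block 1 fell and the median was -0.70, with H2-Ab1 at -0.26 (adjusted p = 0.987), H2-Aa at -0.63 and Cd74 at -0.81. Of 17 class I and immunoproteasome genes 1 rose and 2 fell, with a median of -0.12.

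Basophil and monocyte genes were mixed. Fcer1a, the IgE receptor chain of basophils and mast cells, was at -0.91, -0.34, -0.45, -0.29 and -0.39 in sham and at -3.57, -4.19, -5.55 and -3.02 after 8.8 Gy, a fall of 3.61 ± 0.43 (adjusted p = 8.33e-06). The basophil protease Mcpt8 fell by 3.04 ± 0.50. In the same list Hdc, which makes histamine and is also expressed in neutrophils, rose by 1.52 ± 0.36, and Gata2 rose by 1.41 ± 0.40. Of 19 monocyte identity genes 1 rose and 5 fell. Irf8, the monocyte and B cell transcription factor, fell by 1.97 ± 0.33 (adjusted p = 0.000457), and Cx3cr1, the fractalkine receptor, by 1.83 ± 0.47. Csf1r, the receptor of the growth factor M-CSF, differed by 0.30 ± 0.30 (adjusted p = 0.513). Among 7 eosinophil genes the smallest adjusted p was 0.0864, that of the ribonuclease gene Ear1 (-1.3), and Siglecf, their lectin, differed by -0.15 ± 0.62.

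Platelet genes were higher. Of 17 surface receptors 12 rose and 0 fell, with a median of 1.38, and of 20 granule and cytoskeleton genes 12 rose and 0 fell, with a median of 1.27. All 17 and all 20 differences were above 0. In 6 of the 17 and 9 of the 20 every irradiated array lay above every sham array, against 7.16% of all genes. The mean levels of the lists on sham replicate 4 were 3.527 and 5.395. On 8.8 Gy replicate 3, the lowest irradiated array, they were 3.529 and 5.345. P2ry1, an ADP receptor, was at -0.07, 0.61, 0.68, 2.03 and 0.29 in sham and at 3.81, 3.07, 2.27 and 2.78 after 8.8 Gy, a rise of 2.27 ± 0.39 (adjusted p = 0.000516). Sham replicate 4 was the highest of its group and came close to the lowest irradiated array. The integrin chains of the fibrinogen receptor, Itga2b and Itgb3, rose by 1.69 ± 0.52 (adjusted p = 0.0287) and 1.75 ± 0.50 (adjusted p = 0.0180). Gp1ba, of the von Willebrand factor receptor, rose by 1.87 ± 0.46.

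Of the platelet granule and cytoskeleton genes, Thbs1, thrombospondin, rose by 2.08 ± 0.44 and Tubb1, the tubulin of the platelet ring, by 1.86 ± 0.36. Pf4, a platelet chemokine, was at 7.73 to 9.64 in sham and at 10.45, 9.84, 9.12 and 7.97 after 8.8 Gy. Its spot on replicate 4 lay in the dim patch, and the difference was 0.80 ± 0.42 (adjusted p = 0.189) with that array and 1.26 (adjusted p = 0.0379) without it. The platelet counts depended on the setting. Without replicate 2, 7 of 17 surface receptors were called higher, without both doubted arrays 2 of 17 and 5 of 20, and after normexp 1 of 17 and 0 of 20, with medians of 0.46 and 0.32. With scan day as a block 0 of 17 and 0 of 20 were called, with medians of 1.40 and 1.26.

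Regulators of red-cell and progenitor development moved both ways. Of 16 tested 6 rose and 3 fell, with a median of -0.44, while after normexp 2 rose, 4 fell and the median was 0.14. Epor, the erythropoietin receptor, was at -0.40, 0.16, 0.57, 1.60 and -0.03 in sham and at 2.95, 2.71, 2.14 and 2.51 after 8.8 Gy, a rise of 2.20 ± 0.37 (adjusted p = 0.000489). Gfi1b rose by 1.92 ± 0.38 and Gata1 by 1.71 ± 0.41, while Klf1, the factor of late red-cell precursors, differed by 0.19 ± 0.39 (adjusted p = 0.770). Bcl11a, a globin repressor also expressed in B cells, fell by 2.05 ± 0.42 and Myb, of immature progenitors, by 1.33.

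Red-cell genes were lower on some irradiated arrays, and low on 1 sham array too. The mean level of the membrane list, relative to sham, was 0.44, -0.43, -1.71 and -1.37 on 8.8 Gy replicates 1 to 4. On sham replicate 1 it was -1.04. Of 17 genes of the red-cell membrane skeleton 1 rose and 4 fell, with a median of -1.18. Slc4a1, the anion exchanger band 3, was at 5.90, 7.27, 6.67, 7.24 and 7.41 in sham and at 6.57, 5.61, 3.89 and 3.99 after 8.8 Gy. Replicates 3 and 4 were low while replicate 1 lay within the sham range, and the fall of 1.88 ± 0.56 (adjusted p = 0.0238) was lost without replicate 4 (-1.54, adjusted p = 0.0903). Gypc, glycophorin C, rose by 1.79 ± 0.43. Without replicate 4, 1 of 17 fell, and without both doubted arrays 0. Of 16 heme and iron genes 0 rose and 3 fell, with a median of -0.11, and the rate-limiting enzyme Alas2 differed by 0.14 ± 0.34 (adjusted p = 0.807). Of 7 globin genes 1 fell, the hemoglobin chaperone Ahsp (2.27 ± 0.62), while Hba-a1 differed by 0.11 ± 0.36.

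**Figure D3:**
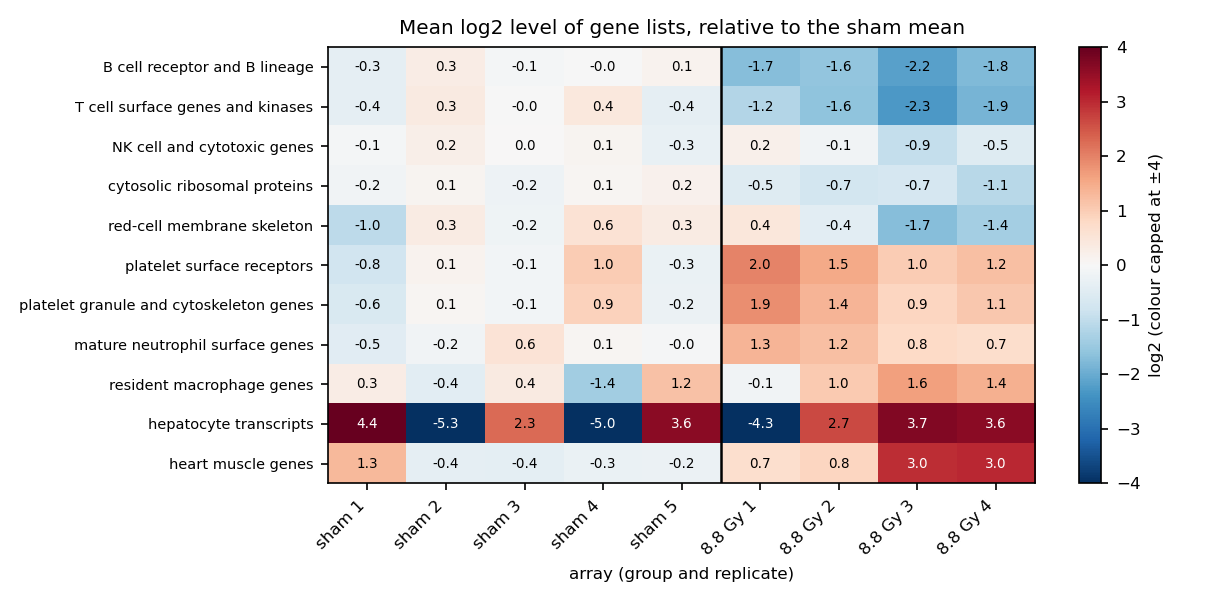
Mean log2 level of gene lists (rows) on each sham and 8.8 Gy array (columns), relative to the mean of the 5 sham arrays, with the value printed in each cell and colour capped at 4 log2 units in either direction. B and T cell lists are lower on all 4 irradiated arrays than on any sham array. Platelet lists are above the sham mean on all 4, but sham replicate 4 is about as high as 8.8 Gy replicate 3. The red-cell list is lowest on 8.8 Gy replicates 3 and 4, followed by sham replicate 1. Hepatocyte transcripts are high on 3 arrays of each group.

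Neutrophil surface genes were higher, and granule protein genes differed among themselves. Of 18 mature neutrophil surface genes 10 rose and 0 fell, with a median of 1.18. Trem1, an amplifier of neutrophil activation, was at -0.33, -0.71, 0.45, -0.46 and 0.05 in sham and at 1.42, 1.47, 1.57 and 0.97 after 8.8 Gy, a rise of 1.56 ± 0.29 (adjusted p = 0.000991). Ly6g, a neutrophil surface marker, rose by 1.03 ± 0.28 and the stefin gene Stfa2l1 by 1.73 ± 0.35. The receptor of the growth factor G-CSF, Csf3r, differed by 0.31 ± 0.23 (adjusted p = 0.377). Of 17 granule protein genes 4 rose and 0 fell, with a median of 0.75. Those that rose were Lcn2, Mmp9, S100a9 and Prtn3, while Camp, Ltf and Ngp, of the secondary granules made in the marrow, differed by -0.83 ± 0.49, -0.78 ± 0.60 and -0.73 ± 0.64 (adjusted p of 0.245, 0.389 and 0.451). After normexp 3 of 18 surface genes and 1 of 17 granule genes were called higher, with medians of 0.31 and -0.012, and S100a9 turned to -0.17, and without both doubted arrays 4 and 0.

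Of 15 Fc gamma receptor and phagocytic genes 7 rose and 0 fell, with a median of 0.80. Fcgr4, a receptor of IgG2 complexes, rose by 1.32 ± 0.32, and Clec7a, the fungal lectin receptor Dectin-1, by 1.24 ± 0.28. Lamp2, of the lysosome membrane, went from 1.86 to 2.62 in sham to 3.42 to 3.89 after 8.8 Gy, a rise of 1.37 ± 0.21 (adjusted p = 0.00017). Without both doubted arrays 3 of the 15 were called higher and after normexp 1. Of 13 cytokine genes 2 rose and 1 fell. Il1b, the gene of interleukin 1 beta, rose by 1.44 ± 0.33 and Il1rn, of its receptor antagonist, by 1.25 ± 0.35. Ccl3, a chemokine of monocytes and lymphocytes, fell by 3.08 ± 0.47, a direction that normexp turned (0.14). Of 17 Toll-like receptor genes and adaptors 2 rose and 1 fell, and of 16 NF-kappaB genes 1 rose, Nfkbiz (1.12 ± 0.31).

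Ribosomal protein genes were lower as a group. Of 83 cytosolic ribosomal protein genes 0 rose and 55 fell, with a median of -0.92. Rps27 was at 8.65, 8.78, 8.57, 8.77 and 8.81 in sham and at 7.66, 7.36, 7.47 and 7.14 after 8.8 Gy, a fall of 1.3 ± 0.22 (adjusted p = 0.000428). Rplp0 differed by -0.24 ± 0.32 (adjusted p = 0.634). Without both doubted arrays 13 of 83 fell and after normexp 78. Lymphocytes are rich in these transcripts, and in the same arrays the B and T cell lists were lower, but their part in this result was not tested. Of 77 mitochondrial ribosomal protein genes 5 fell, and of 81 oxidative phosphorylation subunits also 5, with medians of -0.47 and -0.47.

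Chaperone genes followed the same direction. Of 21 tested 1 rose and 11 fell, with a median of -1.03. Hsp90ab1, the constitutive cytosolic Hsp90, was at 5.80, 6.69, 5.86, 6.31 and 5.71 in sham and at 4.79, 4.76, 4.72 and 4.77 after 8.8 Gy, a fall of 1.31 ± 0.23 (adjusted p = 0.00075). Hsph1, a nucleotide exchange factor of Hsp70, fell by 1.91 ± 0.33. Without both doubted arrays 2 of 21 fell and after normexp 17. Of 21 antioxidant genes 3 rose and 3 fell, among them Gsr, glutathione reductase (1.13 ± 0.27), and Sod2, the mitochondrial superoxide dismutase (fell by 1.29 ± 0.33). Of 34 constitutive proteasome subunits 1 rose and 0 fell.

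Replication genes were lower and mitotic genes mostly not called. Of 16 genes of the MCM helicase and nucleotide synthesis 1 rose and 9 fell, with a median of -0.86. Cdt1, which loads the MCM helicase, went from 1.17 to 2.57 in sham to -0.05 to 0.16 after 8.8 Gy, a fall of 1.84 ± 0.30 (adjusted p = 0.000359). Mcm5 fell by 1.60 ± 0.29, and Cdc45, a helicase partner, was the member that rose (1.5, adjusted p = 0.0239). Without replicate 2 or without replicate 4 the number that fell was 4 of 16. Of 12 mitotic genes 0 rose and 2 fell, Nusap1 by 1.79 ± 0.44 and Ube2c by 1.31 ± 0.44. Mki67, the proliferation marker Ki-67, was at 1.53 to 2.86 in sham and at 4.60, 3.68, 1.63 and 2.32 after 8.8 Gy, a difference of 0.55 ± 0.52 (adjusted p = 0.490).

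Most DNA repair genes were not called, as were 9836 of all 12007 genes tested. Of 13 base excision and single-strand break repair genes 0 rose and 1 fell, the flap nuclease Fen1 (1.28 ± 0.30, adjusted p = 0.00534). In 5 of the 13 every irradiated array lay below every sham array, against 12.2% of all genes, and the median was -0.34. The mean level of the 17 list genes on the array, relative to sham, was -0.304 to -0.488 on the irradiated arrays and -0.179 to 0.154 on the sham arrays, with no overlap. Of 10 end-joining genes 0 rose and 2 fell. Without overlap 3 lay below sham and 1 above, against 12.2% and 7.16% of all genes. Xrcc6, the Ku70 subunit, went from 1.36 to 1.80 in sham to 0.60 to 0.95 after 8.8 Gy, a fall of 0.78 ± 0.16 (adjusted p = 0.00276). Prkdc, the kinase of the same complex, fell by 1.19 ± 0.30, a direction that normexp turned (0.54). Of 9 homologous recombination and checkpoint genes 1 rose, the kinase Chek2 (1.18 ± 0.34), and 1 fell, the nuclease Mre11a (0.99 ± 0.30), which normexp turned as well (0.41). Without overlap 3 of the 9 lay below sham and 0 above, against 12.2% and 7.16% of all genes, and the median was -0.48. The mean level of this list, relative to sham, ran from -0.488 to 0.435 after 8.8 Gy and from -0.318 to 0.211 in sham.

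Among the largest rises outside the lists were Tmem35a, at least 10.4-fold higher, and Notch3, a Notch receptor, at least 6.37-fold higher. Zfp365 rose by 3.94 ± 0.39 (adjusted p = 7.5e-07). Among the largest falls outside them were Gpr174, a lymphocyte receptor of lysophosphatidylserine, at least 4.70-fold lower, and Nsg2, a neuronal vesicle protein, which fell by 3.55 ± 0.81. The Nsg2 spot of replicate 4 lay in the dim patch, and the fall was 2.12 without that array (adjusted p = 0.00707).

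**Figure D4:**
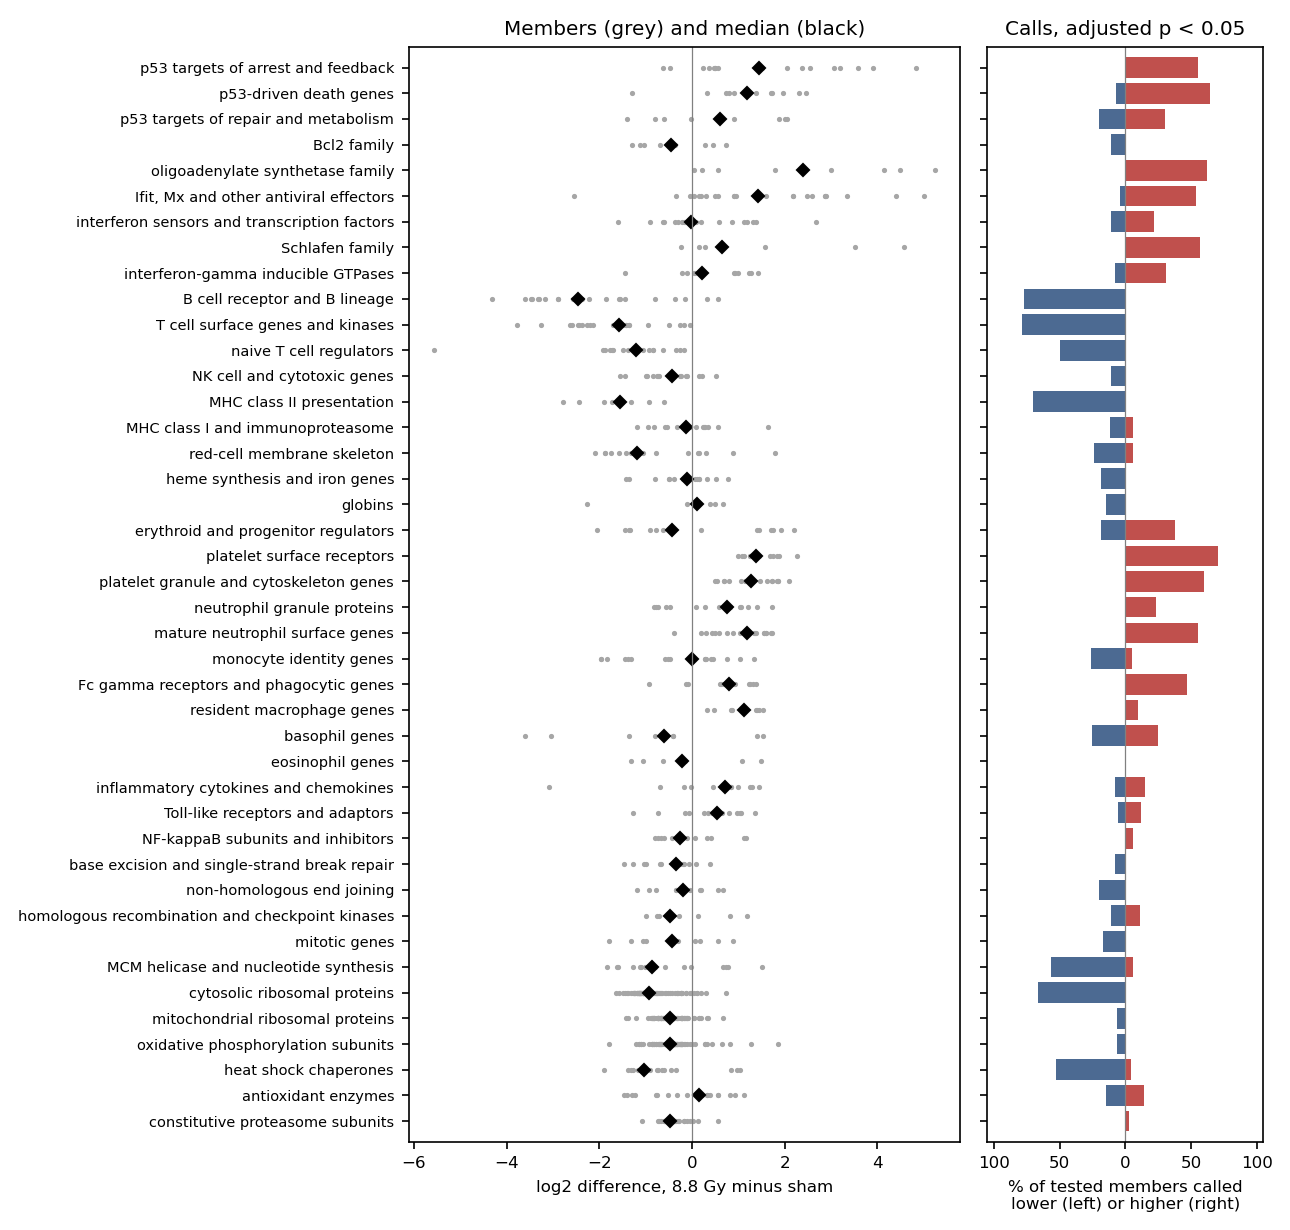
Log2 difference of each gene list, 8.8 Gy minus sham, with a grey point for each member and a black diamond for the median (left), and the percent of tested members called lower (blue, to the left) or higher (red, to the right) at an adjusted p under 0.05 (right). Over all genes tested 8.0% were called higher and 10.1% lower, and the median was -0.02.

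RNA of other tissues was present on some arrays of both groups. The mean level of 23 hepatocyte transcripts was 7.31, -2.44, 5.14, -2.08 and 6.49 on sham replicates 1 to 5 and -1.37, 5.54, 6.60 and 6.5 on 8.8 Gy replicates 1 to 4, with 7 to 23 of them well above background in sham and 8 to 23 after 8.8 Gy. Alb, the gene of serum albumin, was at 9.20, -3.94, 7.13, -4.53 and 8.56 in sham and at -2.23, 7.37, 8.47 and 8.36 after 8.8 Gy. High and low arrays occurred in both groups, and the smallest adjusted p among the 10 members tested was 0.086, that of haptoglobin, Hp (1.52). With the hepatocyte level of the array as a covariate all 2171 calls were kept, and 1647 genes were called higher and 1531 lower. Heart muscle genes were at -1.5 on sham replicate 1 and -3.19 to -3.03 on the others, and at -2.10, -1.94, 0.17 and 0.24 after 8.8 Gy.

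The mean level of acute-phase genes was high and low on the same arrays as these transcripts, but single members differed. Saa1, serum amyloid A, was at 3.9, 1.54, 2.13, 2.06 and 3.09 in sham and at 2.95, 7.6, 8.80 and 8.50 after 8.8 Gy. The low irradiated array was also the one low in hepatocyte transcripts, and the rise of 4.42 ± 1.36 (adjusted p = 0.0277) was lost without replicate 2 (adjusted p = 0.075) or replicate 4 (adjusted p = 0.084). The part of hepatocyte RNA in the Saa1 rise was not tested. Saa3, of the same list, was at 0.94, 0.41, 2.41, 0.73 and 4.03 in sham and at 3.61, 3.55, 6.94 and 5.00 after 8.8 Gy. Its difference was 3.07 ± 1.22 (adjusted p = 0.0817). Lcn2, also in that list, rose by 1.73 ± 0.39 (adjusted p = 0.0047). Resident macrophage genes showed medians above 0 without calls for most members. Of 10 tested 1 rose, the iron exporter Slc40a1 (1.12 ± 0.31, but -0.03 after normexp and -0.09 with slide as a block), and C1qa differed by 1.44 ± 1.06 (adjusted p = 0.366).

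Between the doses, 8.8 Gy and 6 Gy wild-type blood, 0 of 12007 genes passed limma's threshold (0%), although 2003 had an unadjusted p under 0.05. The smallest adjusted p was 0.0932, shared by several genes. Dapl1 was among them, with a difference of -2.19 ± 0.42 between the higher and the lower dose. The settings differed here, with 834 genes higher and 1409 lower after normexp and 643 and 599 with array weights. As with array weights, more genes were higher than lower with the hepatocyte covariate (546 and 89). The same held in the authors' deposited table (136 and 16) and after quantile normalization (93 and 38). The differences below are therefore a description. T cell surface genes had a median difference of -0.77, and 20 of 23 were lower after 8.8 Gy than after 6 Gy. Thy1 was at 1.31 ± 0.63 (SD, n = 4) after 8.8 Gy and at 2.74 ± 0.19 (SD, n = 5) after 6 Gy. Cd3g was at -0.03 ± 0.50 and 1.13 ± 0.25 in the same groups. NK cell genes had a median of -0.78, B lineage genes of -0.59 and cytosolic ribosomal protein genes of -0.55.

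Platelet and red-cell membrane genes ran the other way between the doses. Hepatocyte transcripts had a median difference of 2.38 over 10 genes, but the groups overlapped. The mean level of the 23 on the array ran from -1.37 to 6.60 after 8.8 Gy and from -0.85 to 6.71 after 6 Gy. The part of these transcripts in the differences between the doses was not tested. Platelet surface receptors had a median of 0.88 and 17 of 17 were higher after 8.8 Gy, 9 of them at an unadjusted p under 0.05. Itga2b was at 4.38 ± 0.73 (SD, n = 4) against 2.65 ± 1.14 (SD, n = 5). Genes of the red-cell membrane had a median of 0.90, and Ank1, ankyrin 1, was at -1.47 ± 1.51 after 8.8 Gy and -4.01 ± 0.90 after 6 Gy. Mitotic genes had a median of 0.74. Genes of p53 arrest (0.22), p53-driven death (0.11), oligoadenylate synthetases (0.08) and antiviral effectors (0.10) had medians near 0, with Cdkn1a at 1.99 ± 0.27 after 8.8 Gy and 2.26 ± 0.35 after 6 Gy. These medians do not show that the doses act alike on those genes.

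**Figure D5:**
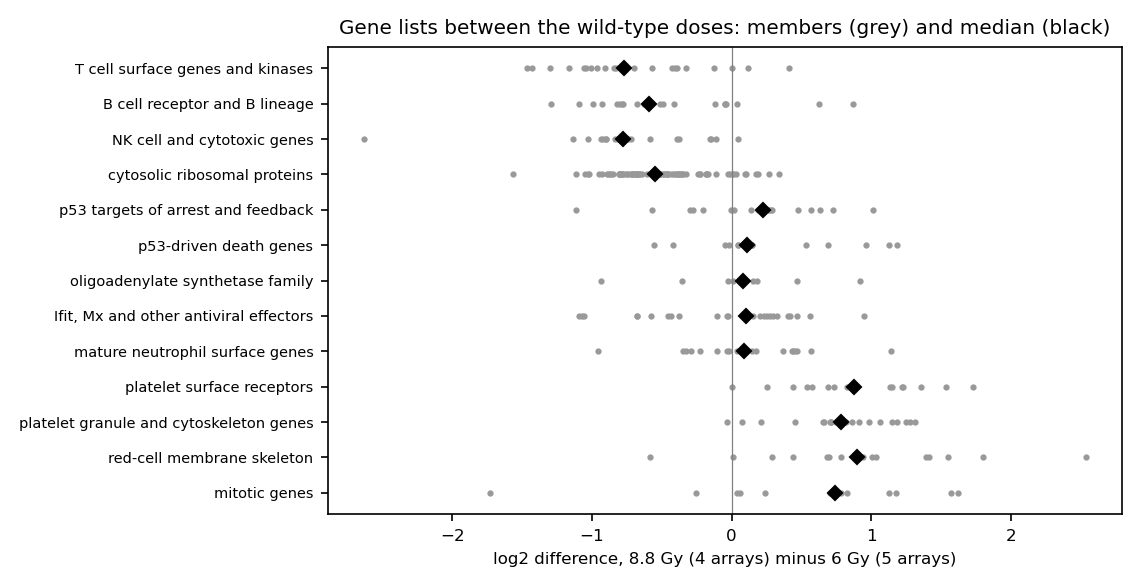
Log2 difference between the wild-type doses, 8.8 Gy (4 arrays) minus 6 Gy (5 arrays), with a grey point for each member of a gene list and a black diamond for its median. T cell, NK cell and ribosomal protein lists have medians below 0, the platelet, red-cell membrane and mitotic lists above 0, and the p53 arrest, p53 death, oligoadenylate synthetase and antiviral effector lists between 0.08 and 0.22, while 0 genes were called in this comparison.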

How the data were processed

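Each deposited scanner file holds spot intensity values of 1 array (1 colour, Cy3), background-subtracted and detrended within the array by Agilent Feature Extraction 11.5.1 per the file headers, with no scaling between arrays and probe positions on mm9. The authors' deposited log2 table entered as an alternative only. Compared with the scanner files, at least 98.85% of the values of every column lay within 0.01 of the log2 processed signal plus 1 constant, and the column medians were 7.94, 7.68, 7.74, 7.66 and 7.80 for sham replicates 1 to 5 and 7.71, 7.85, 8.04 and 7.97 for 8.8 Gy replicates 1 to 4. Its direction and log2 scale follow from the match, and its values are not centred on 0.

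Spots with outlier marks and control spots were left out, and saturated spots kept. The log2 processed signal minus the 75th percentile of the array was averaged over the spots of a probe (39429 probes). Probes were named by RefSeq accession (27508), a unique older name (402) or the file's name (5345), and 6174 had no symbol. The brightest probe stood for a gene, and a gene was tested if at least 4 arrays of the 8.8 Gy or of the sham group had it well above background. Two-sided limma 3.58.1 (R 4.3.3) was fitted as group means over all 24 arrays, with Benjamini-Hochberg adjustment and a threshold of 0.05. The fit was tested on simulated data. A bound ("at least") sets the brighter group's mean against a floor in the dim group, which on each array is the dimmest probe still well above background, or the gene's own signal where that is higher. P-values measure the spread between arrays, each of 1 mouse per the series design. Whether the nearly equal arrays came from separate mice was not tested. Scan day and slide cannot be told apart from radiation in these p-values. The number of arrays limits the precision.

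Genes named were Parp1, key genes of each list, the 2 called members of each list with the smallest adjusted p that are not key, and the 10 largest rises and 10 largest falls without overlap between the groups. The rule also took the 6 largest changes each way between the doses, where 0 genes were called. Other members named with values were picked after their values were seen, to show what a list's count holds. Gene lists and members were chosen with earlier results of these data known. Alternatives covered background correction, normalization, filter, probe choice, arrays left out, dim patch, array weights, slide, scan day, replicate number, hepatocyte level and the authors' table. Same-numbered sham and 8.8 Gy arrays did not deviate together (correlations of -0.74, -0.08, 0.01 and -0.29), so the numbers were not taken as pairs. Some members that enter the list counts are not reported here by name.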

Additional observations from a re-analysis of the deposited data

Results flagged for a closer look

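The named genes were checked for an array that stood apart from the rest of its group in 490 groups (245 genes in the sham and the 8.8 Gy group), and 28 (5.71%) held one by Dixon's criterion. Chance gives about 1 in 20.

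In the 8.8 Gy group replicate 4 was low for Parp1 (-3.94, in the dim patch), Ifit1 (0.41), Gbp2 (1.10) and Hsph1 (0.79). It was high for Ifit3 (3.28), Vpreb3 (-0.93) and Pcna (1.74). Replicate 3 was high for Oas2 (3.17) and low for Gpr174 (-5.31), Stx11 (3.46) and the eosinophil genes Siglecf (-1.12) and Il5ra (-2.91). Replicate 2 was low for Dapl1 (-3.62) and Fen1 (-0.79). Replicate 1 was high for S1pr1 (1.33).

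In the sham group replicate 1 was high for Oasl2 (-3.68) and Myh6 (2.46) and low for Fcer1a (-0.91), Ciita (-2.23), Mcpt8 (-1.40) and Mki67 (1.53). Replicate 2 was high for Nfkb1 (-0.37) and Prkdc (-1.81). Replicate 4 was high for Trp53 (-1.25) and Gsr (4.005). Replicate 5 was low for Oasl1 (-0.91), Rtp4 (0.17) and Il2rb (-0.48).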

How the results depend on the processing

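Against sham 2171 genes were called. Normexp gave 3890 (1548 higher, 2342 lower), array weights 5311 (2529 and 2782), leaving out 8.8 Gy replicates 2 and 4 together 442 (224 and 218), and no filter on dim probes 1402 (668 and 734). Scan day as a block gave 25 (11 and 14) and slide as a block 0. By list, scan day as a block called 6 of 22 B lineage and 2 of 23 T cell genes lower. It called 3 of 8 oligoadenylate synthetase genes and 4 of 26 antiviral effectors higher. Called were 0 of 14 p53 death genes, 0 of 18 neutrophil surface genes, 0 of 83 cytosolic ribosomal protein genes and 0 of 21 chaperone genes. The hepatocyte covariate called 1647 higher. Leaving out 1 array at a time, the array labelled Parp1-/- 6 Gy replicate 1 included, gave 1336 to 2084 calls, with 529 to 1042 higher and 756 to 1167 lower. Without 8.8 Gy replicate 1, 529 were higher and 1158 lower, without 8.8 Gy replicate 2 580 and 756, and without sham replicate 2 698 and 762. The authors' table gave 1191 higher and 787 lower of 7258 genes, 60.2% higher against 44.3%, with a median over all genes of 0.28. The replicate block called 681 genes higher and 942 lower against sham and 0 between the doses. Between the doses 0 were called, but 2243 after normexp, 1242 with array weights, 635 with the hepatocyte covariate, 152 in the authors' table, 131 after quantile normalization, 10 with slide as a block, 3 after median centring and 0 to 9 when leaving out 1 array. After normexp 298 of the 2171 called genes changed sign, 13 of them called in the other direction, and with slide as a block 83 did. Among called genes the text may name, those that turned after normexp were Ccl3 0.14, G6pdx -0.018, Prkdc 0.54, Slc40a1 -0.034, Fcer1g -0.014, Slfn2 -0.17, S100a9 -0.17, Bmf 0.46, Fas -0.035, Ddb2 0.11, Mre11a 0.41 and Psmd11 -0.11. With slide as a block Slc40a1 turned (-0.091). The cause was not tested. Where a gene was dim in a group, its signal over background allows only a bound.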
